A study of Homo sapiens with 9 samples.

Results

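The BCL2 family decides whether the outer membrane of the mitochondrion stays intact. Its anti-apoptotic members (MCL1, BCL2 and BCL2L1, the last encoding BCL-XL) hold the effectors BAX and BAK1 in check, and BH3-only members (BCL2L11, BBC3, PMAIP1, BID and BAD) bind the guardians or engage the effectors when a cell is stressed. Plasma cells and many myelomas depend on MCL1 for survival, and the MCL1 protein is a substrate of FBXW7, the receptor subunit of an SCF ubiquitin ligase. These 10 genes were taken by symbol from a table of 38478 genes, and all 10 passed the filter on low counts that left 13262 genes for testing. Poly(A)-selected RNA was sequenced in 9 libraries of OPM-1, a human myeloma cell line grown in RPMI with fetal bovine serum. All 9 carry the genotype label WT and came from cells stably expressing a targeting RNA: against luciferase as control (gLuc), against FBXW7 (gFBXW7), or against FBXW7 and KMT2D together (gFBXW7 + gKMT2D, written gFBXW7_gKMT2D). Each of the 3 groups had 3 libraries, which the design text calls independent biological replicates, and the labels give neither a time after the RNAs were introduced nor whether a group is 1 clone.

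Library totals ran from 16337492 to 27076242 counts, and every pair of libraries within a group differed by more than counting noise. Chi-squared values per degree of freedom ran from 6.41 to 234, the largest between gFBXW7_gKMT2D 2 and gFBXW7_gKMT2D 3. FBXW7 transcript lay between 45.2 and 71.7 CPM (counts scaled to the same library size) in all 9 libraries and KMT2D between 28.6 and 107.0 CPM, with overlapping groups. Reads summed over a gene would miss a short edit, so these levels check neither the targeting nor the labels. The 8 plasma cell markers, among them SDC1, XBP1 and TNFRSF17, summed to 2865 to 3518 CPM, while 20 markers of other cell types summed to 24.5 to 46.1 CPM. Most of the latter was HBB, at a mean of 34.0 CPM, and 6 of the 20 had no read in any library. The library gFBXW7_gKMT2D 3 stood apart, where 77 ribosomal protein genes took 11.2% of the reads, against at most 8.52% in any of the others.

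MCL1 was by far the most abundant member per unit of transcript length. In RPKM (reads per kilobase of transcript, scaled to library size), which allows genes of different length to be compared, MCL1 averaged 113.0 over the 9 libraries, above 95.5% of the tested genes. BAX (43.3), BAK1 (42.3) and BAD (41.3) came next. Their ranges overlapped, and BAX exceeded BAK1 in 4 of 9 libraries and BAK1 exceeded BAD in 6 of 9, so their order was not settled. PMAIP1, which encodes NOXA, a BH3-only protein that binds MCL1, followed at 15.1 RPKM with no library as low as any for BID (8.81 RPKM). BCL2 (7.33 RPKM) and BCL2L1 (5.78 RPKM) came after BID. The ranges of BID and BCL2 overlapped, as did those of BCL2 and BCL2L1, and in each of these pairs the first was higher in 7 of 9 libraries. BCL2L11, encoding BIM, averaged 2.70 RPKM and BBC3, encoding PUMA, 0.641 RPKM, and each lay below the gene before it in all 9 libraries. Apart from the 4 overlapping pairs of neighbours, each gene therefore lay above the next in every library. BAX and BAD, which are not neighbours, also changed places in gFBXW7_gKMT2D 3 (43.1 and 56.1 RPKM).

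**Figure D1:**
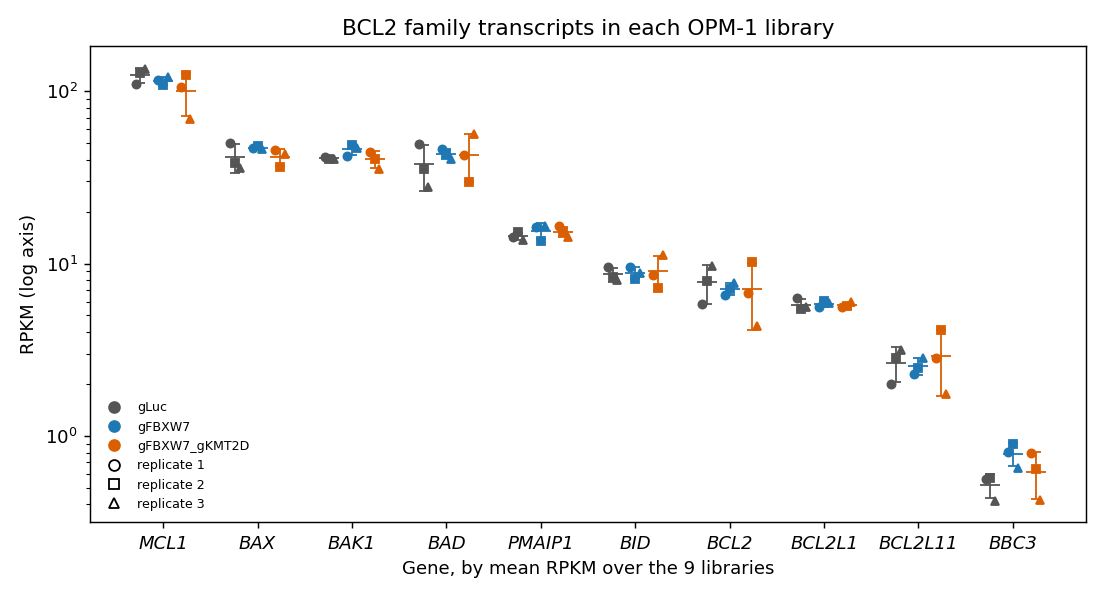
RPKM on a log axis for the 10 BCL2 family genes in each of 9 libraries (colour, group; symbol, replicate number), where a horizontal mark gives the mean of a group and the bar its SD (n = 3). MCL1 sits above every other member in all 9 libraries, BBC3 lies at the bottom, and the gFBXW7_gKMT2D libraries of MCL1, BCL2, BCL2L11, BID and BAD are spread more widely than those of the other groups.

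None of the 10 genes was called in a comparison. In 1 edgeR quasi-likelihood fit of all 9 libraries, with Benjamini-Hochberg adjustment over 13262 genes and a threshold of 0.05, 0 of 10 members were called in gFBXW7 against gLuc, where 0% of all genes were. The count was also 0 of 10 in gFBXW7_gKMT2D against gLuc (0.0528% of all genes) and in gFBXW7_gKMT2D against gFBXW7 (0.0603%). An unadjusted p under 0.05 was reached by 1, 0 and 0 members in these comparisons, beside 1.58%, 3.61% and 4.22% of all genes. DESeq2 and limma also called 0 members in each comparison. The median log2 fold change of the 10 members was 0.10 in gFBXW7 against gLuc (all genes, 0.00), 0.12 in gFBXW7_gKMT2D against gLuc (all genes, 0.00) and 0.00 in gFBXW7_gKMT2D against gFBXW7 (all genes, 0.02). The 95% intervals below are for single genes, without adjustment. Comparisons that share gLuc, gFBXW7 or gFBXW7_gKMT2D libraries are not independent of each other.

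Among the anti-apoptotic members, MCL1 (chromosome 1, 150574551 to 150579738, GRCh38) had a group mean of 493.8 CPM in control and 471.3 CPM in FBXW7-targeted cells. By library it had 462, 501 and 518 CPM for gLuc, 488, 445 and 481 with FBXW7 targeted, and 430, 469 and 331 with both genes targeted. The groups overlapped, and the low value was that of gFBXW7_gKMT2D 3. Its log2 fold change was -0.07 (SE 0.15, edgeR adjusted p = 0.96) in gFBXW7 against gLuc, with an interval from 0.75-fold to 1.21-fold. In gFBXW7_gKMT2D the value was -0.27 against gLuc (SE 0.15, edgeR adjusted p = 0.90, interval from 0.65-fold to 1.06-fold) and -0.20 against gFBXW7 (SE 0.15, interval from 0.68-fold to 1.11-fold). Without gFBXW7_gKMT2D 3 these became -0.13 and -0.06, so the values moved by more than 1.5 times with that library. These counts measure transcript, so they do not bear on the amount of MCL1 protein, the form on which FBXW7 acts. They also do not separate the long and short splice forms of MCL1 or BCL2L1, whose proteins have opposite roles.

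BCL2, the guardian after which the family is named (chromosome 18, 63123346 to 63320128), showed a wide spread inside groups. It had 60.6, 77.7 and 92.7 CPM for gLuc, 68.9, 72.4 and 76.3 with FBXW7 targeted, and 68.6, 95.7 and 51.5 with both genes targeted. Both the highest and the lowest of the 9 values belonged to gFBXW7_gKMT2D, where the coefficient of variation was 31.0% against 5.10% in gFBXW7. The log2 fold changes were -0.09, -0.10 and -0.01 in the order of comparisons above (SE 0.22 to 0.23), and intervals reached from 0.66-fold to 1.41-fold. BCL2L1 (chromosome 20, 31664452 to 31723989) had between 17.6 and 23.6 CPM in all 9 libraries, with log2 fold changes of 0.05, 0.07 and 0.02 (SE 0.15). MCL1 made up 87.1% to 90.5% of the summed RPKM of these 3 guardians in every library.

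The effectors BAX and BAK1, form the pores in the mitochondrial membrane. The gLuc libraries held 98.5, 90.0 and 87.6 CPM of BAK1 (chromosome 6, 33572547 to 33580293) and those of gFBXW7 100.04, 112.7 and 105.1, with every gFBXW7 library above every gLuc library. The gFBXW7_gKMT2D libraries, at 102.7, 85.8 and 96.0 CPM, overlapped with both. BAK1 and BBC3 were the 2 members without overlap between gFBXW7 and gLuc, where 8.86% of all genes showed none and 4.37% lay higher in gFBXW7, as both did. No member lacked overlap in gFBXW7_gKMT2D against gLuc (6.97% of all genes) or against gFBXW7 (9.55%). The log2 fold change of BAK1 was 0.20 in gFBXW7 against gLuc (SE 0.12, edgeR adjusted p = 0.96, interval from 0.95-fold to 1.39-fold), 0.04 in gFBXW7_gKMT2D against gLuc and -0.16 against gFBXW7.

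BAX (chromosome 19, 48954815 to 48961798) had 69.2, 49.2 and 45.1 CPM for gLuc, 64.3, 64.7 and 60.4 with FBXW7 targeted, and 61.0, 44.6 and 67.7 with both genes targeted. The gLuc and gFBXW7_gKMT2D groups each held libraries above and below all those of gFBXW7. Log2 fold changes were 0.21, 0.08 and -0.13 in the 3 comparisons (SE 0.20). MYC, another FBXW7 substrate, binds the E-box CACGTG, which reads the same on both strands. This motif was counted in the promoters of all members found, and that of BAX is shown because it held the most. RefSeq promoters of 300 bases (250 before to 50 after a gene start, GRCh38.p14) were found for 9 of the 10 members, all but MCL1. The E-box occurred in 4 places in that of BAX, once in that of BBC3 and in 2 of 5 promoters of BID, and in 7.26% of all 35116 promoters in the table. At least 4 E-boxes in 1 promoter were found in 5 promoters (0.0142%). The limit of 4 is the count of BAX itself, so this share is a description and not a test. The 4 BAX sites follow on the plus strand of chromosome 19, 5′ to 3′, with the E-box in capitals, in order along the chromosome. All lie before the RefSeq start, which is downstream of the GENCODE start given above, so the last 2 windows fall inside the GENCODE gene.
BAX chr19:48954729-48954750: tggacagtCACGTGacgggacc
BAX chr19:48954774-48954795: ggtgcggtCACGTGacccggcg
BAX chr19:48954822-48954843: ggggcggcCACGTGaaggacgc
BAX chr19:48954853-48954874: ggggctctCACGTGacccgggc
These letters describe the window and do not show binding. MYC itself had 276, 291 and 294 CPM for gLuc, 212, 250 and 269 with FBXW7 targeted, and 315, 285 and 306 with both genes targeted, and did not pass the test in any comparison.

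Of the BH3-only members, BBC3 had the largest fold change and the lowest counts. BBC3 (chromosome 19, 47220822 to 47232766) encodes PUMA, which binds all the guardians. It had 27, 24 and 20 reads in gLuc, 38, 37 and 31 reads in gFBXW7, and 35, 43 and 17 reads in gFBXW7_gKMT2D. In CPM these were 1.43, 1.36 and 0.97 for gLuc and 2.05, 2.20 and 1.58 for gFBXW7, with no overlap. Its log2 fold change in gFBXW7 against gLuc was 0.63 (SE 0.26, interval from 1.03-fold to 2.33-fold), the 1 member value with an unadjusted p under 0.05, and it did not pass the adjustment (edgeR adjusted p = 0.96). The gFBXW7_gKMT2D libraries (1.97, 1.46 and 1.22 CPM) overlapped with both other groups, at log2 fold changes of 0.31 against gLuc (SE 0.27) and -0.32 against gFBXW7 (SE 0.26).

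BCL2L11 (chromosome 2, 111119378 to 111168447) encodes BIM, which binds all the anti-apoptotic members. Its levels were 17.2, 23.1 and 24.8 CPM for gLuc, 19.9, 20.9 and 23.4 with FBXW7 targeted, and 23.9, 32.0 and 17.2 with both genes targeted. As for BCL2, the highest value was in gFBXW7_gKMT2D 2, while gFBXW7_gKMT2D 3 and gLuc 1 shared the lowest, and log2 fold changes were -0.02, 0.17 and 0.19 in the 3 comparisons (SE 0.22). PMAIP1 (chromosome 18, 59899948 to 59904306) varied little, from 25.0 to 32.7 CPM over all 9 libraries. Its log2 fold changes were 0.14 and 0.16 against gLuc and 0.02 between the FBXW7-targeted groups (SE 0.14), and the interval of the last ran from 0.82-fold to 1.25-fold.

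BID, cleaved by caspase-8 in death receptor signalling (chromosome 22, 17734138 to 17774770), had 27.9, 22.8 and 21.3 CPM for gLuc, 27.9, 23.0 and 24.4 with FBXW7 targeted, and 24.5, 18.7 and 37.2 with both genes targeted. BAD, kept inactive by phosphorylation downstream of growth factors (chromosome 11, 64269830 to 64284704), had 62.5, 41.5 and 32.0 CPM for gLuc, 58.2, 53.2 and 48.6 with FBXW7 targeted, and 52.3, 33.3 and 80.5 with both genes targeted. Both had their highest value in gFBXW7_gKMT2D 3, the reverse of BCL2 and BCL2L11. Fold changes of BAD carried the widest error of the 10 genes (log2 0.23, 0.29 and 0.05, SE 0.32), and its interval against gLuc in gFBXW7_gKMT2D reached from 0.75-fold to 1.99-fold. With 1 library left out, the value of BAD in gFBXW7 against gLuc ran from 0.03 to 0.54. BAD overlaps GPR137 on the opposite strand, BCL2L1 overlaps the antisense RNA ABALON, and MCL1 overlaps ADAMTSL4-AS1 on its own strand. BCL2L11 overlaps the lincRNA MIR4435-2HG, BAK1 the pseudogene GGNBP1 and BCL2 the antisense AC022726.2, each on the opposite strand. The libraries keep strand, but the strand setting of the counting is not given in the sources used here, so reads at these overlaps are uncertain.

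**Figure D2:**
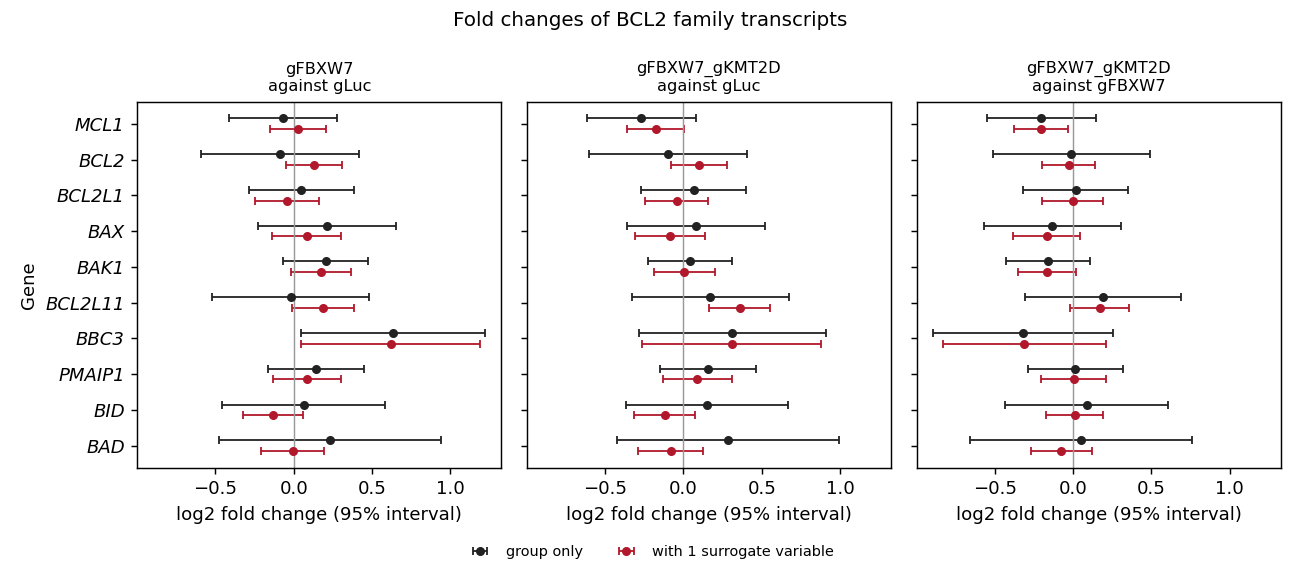
Log2 fold change with 95% interval (bars) of each of the 10 genes in the 3 comparisons, from the edgeR fit with group only (black) and with 1 surrogate variable added (red). With group only, BBC3 in gFBXW7 against gLuc is the 1 interval of 30 that leaves out 0, and intervals narrow for most genes in the fit shown in red.

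For 7 of the 10 members both correlations with the ribosomal protein share of counts had an adjusted p under 0.05. The relation is common in these libraries: a Pearson r of at least 0.716 in size, the smallest among those 7, was found for 50.9% of all 13262 genes and for 8 of the 10 members. Over the 9 libraries, log2 CPM of BAD rose with that share (Pearson r = 0.97, exact permutation p = 2.2e-05, adjusted over 10 relations 0.00022, Spearman rho = 0.97, exact permutation p = 0.00017, adjusted 0.0017). BCL2 went the other way (r = -0.96, exact permutation p = 8.5e-05, adjusted 0.00043, rho = -0.93, exact permutation p = 0.00075, adjusted 0.0025). Without the 2 libraries farthest from the median share, gFBXW7_gKMT2D 3 and gLuc 3, r was 0.95 for BAD and -0.90 for BCL2. Inside each of the 3 groups BAD kept its positive sign and BCL2 its negative sign. BAX, BID and PMAIP1 also ran with the share inside every group, with r over 9 libraries of 0.84, 0.94 and 0.72, and BCL2L11 ran against it inside every group, with r = -0.79 (adjusted exact permutation p from 0.00083 to 0.033 for these genes, and adjusted rho p from 0.0018 to 0.015). Without the same 2 libraries their r values were 0.91, 0.89, 0.52 and -0.80.

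MCL1 and BCL2L1 did not keep their sign inside every group. MCL1 had r = -0.84 (adjusted exact permutation p = 0.012, rho = -0.63, adjusted exact permutation p = 0.095), which became -0.36 without the 2 farthest libraries, so it rests on them. BCL2L1 had r = 0.89 (adjusted exact permutation p = 0.0031, rho = 0.83, adjusted exact permutation p = 0.014) and 0.73 without those libraries. For BAK1 (r = 0.43, rho = 0.43) and BBC3 (r = 0.23, rho = 0.27) no relation was found (adjusted exact permutation p of 0.28 and 0.57 for r, 0.28 and 0.49 for rho). All of these values are shares of the same library totals, so they are not independent measures.

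**Figure D3:**
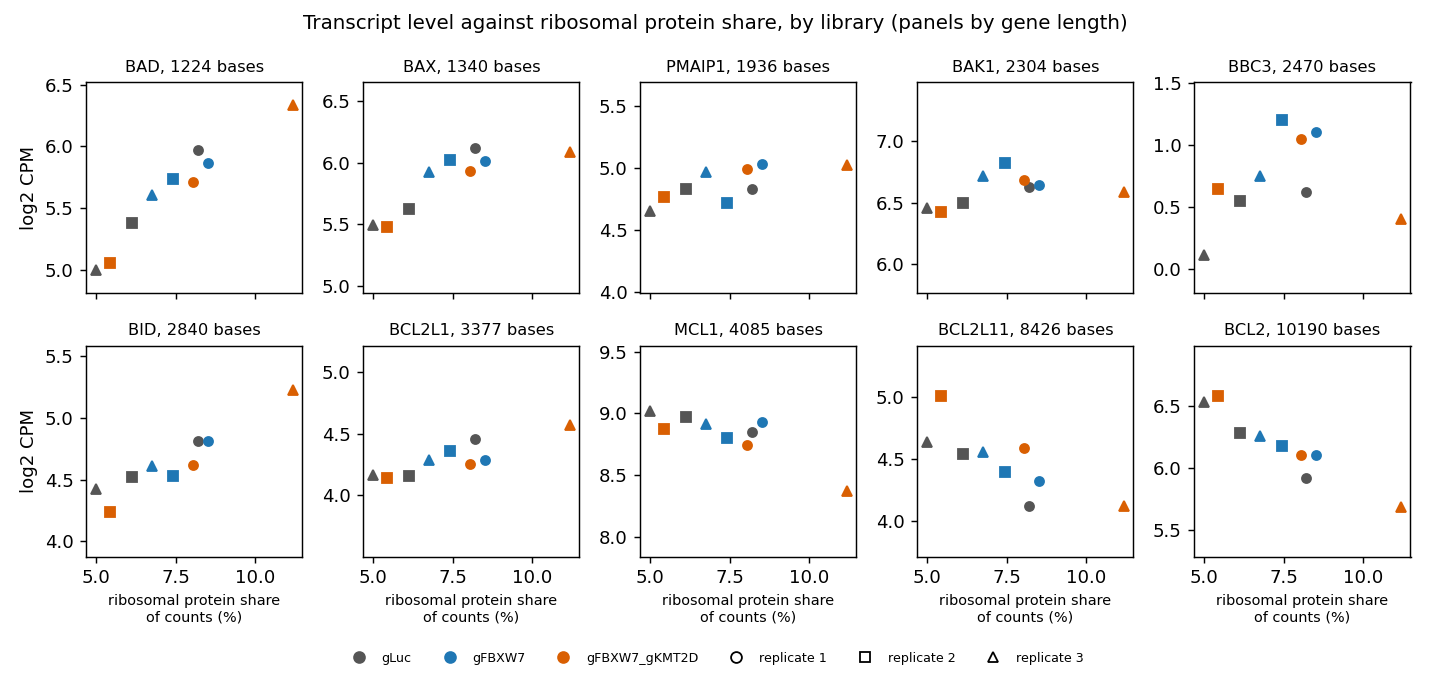
Log2 CPM of each gene against the percent of the library's counts in ribosomal protein genes, 1 point per library (colour, group; symbol, replicate number), with panels in order of gene length and the same height of 1.7 log2 units. BAD, BAX and BID rise and BCL2 and BCL2L11 fall from left to right, with gFBXW7_gKMT2D 3 at the far right.

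The same axis placed anti- and pro-apoptotic genes on both sides. Of the 45 pairs of members, the tightest was BCL2 with BAD, a guardian and a BH3-only gene, at r = -0.98 (exact permutation p = 2.2e-05, adjusted over 45 pairs 0.00099, rho = -0.93, adjusted exact permutation p = 0.0068). It was -0.96 without gFBXW7_gKMT2D 2 and 3, which were farthest from the median of BCL2. BCL2 and BCL2L11, an opposed pair in function, ran together (r = 0.89, adjusted exact permutation p = 0.0082, rho = 0.82, adjusted exact permutation p = 0.032, and r = 0.80 without the same libraries). The share of all gene pairs with such r was not computed, so these p-values do not set the family apart. With the ribosomal protein share, the median size of r was 0.72 over all genes and 0.84 over the members. In gFBXW7_gKMT2D 3, relative to the mean log2 CPM of gFBXW7_gKMT2D 1 and 2, BAD (1224 bases) was higher by 0.95, BID (2840 bases) by 0.79 and BAX (1340 bases) by 0.38. The long BCL2L11 (8426 bases) and BCL2 (10190 bases) differed by -0.68 and -0.65, and MCL1 (4085 bases) by -0.44. BBC3 (2470 bases), at -0.44, was lower than longer genes such as BID and BCL2L1 (0.37), and BAK1 (2304 bases) and PMAIP1 (1936 bases) differed by 0.03 and 0.14. Across the 10 genes this difference had r = -0.75 with log2 length, as a description, and across all 13262 genes r = -0.29. When all genes were split by length into 4 equal parts, the median difference was 0.40 in the shortest and -0.27 in the longest. RNA integrity is not among the labels, and its part in this pattern was not tested.

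When 1 surrogate variable was added to the fit, a step chosen after the data had been seen, it followed the ribosomal protein share (r = 0.99 over the 9 libraries, as a description). It still gave 0 of 10 members called in each comparison, where 0%, 0.415% and 0.950% of all genes were called. Intervals were narrower, and 13 of the 30 member fold changes turned sign, to values between -0.13 and 0.19. BCL2L11 came nearest to the threshold in gFBXW7_gKMT2D against gLuc, at a log2 fold change of 0.36 (SE 0.09, edgeR adjusted p = 0.18, interval 0.16 to 0.55), against 0.17 without the variable. The adjusted p of this value ranged from 0.18 to 1.0 over 17 alternatives. MCL1 in gFBXW7_gKMT2D was -0.18 against gLuc and -0.20 against gFBXW7 (edgeR adjusted p = 0.55 and 0.23), with adjusted p over the same alternatives from 0.27 to 1.0 and from 0.23 to 1.0. The intervals of these MCL1 values, without adjustment, ran from -0.36 to 0.004 and from -0.37 to -0.03, so the second left out 0. In gFBXW7 against gLuc, MCL1 was at 0.03 with an interval from -0.15 to 0.21.

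Ratios within a library do not depend on how libraries are scaled against each other. The ratio of BCL2L11 to MCL1 RPKM was 0.0181, 0.0223 and 0.0232 in gLuc, 0.0198, 0.0228 and 0.0236 in gFBXW7, and 0.0270, 0.0330 and 0.0252 in gFBXW7_gKMT2D. Each gFBXW7_gKMT2D library lay above the other six, although gFBXW7_gKMT2D 3 had low values of both genes. Of the ratios of the 9 other members to MCL1, this was the 1 that separated gFBXW7_gKMT2D from both other groups (7.38% of all other genes lay higher in this way). BBC3 to MCL1 separated gLuc, at 0.00311 to 0.00512, from both others, at 0.00515 to 0.00818. That gap is small for a gene with 17 to 43 reads a library, and the share of all genes that separated gLuc was not computed. In all, 1, 2 and 1 of the 9 ratios did not overlap in the 3 comparisons, beside 7.56%, 15.4% and 16.1% of the ratios of all other tested genes to MCL1, so these counts are near the background. No test was made of these ratios, since they were compared after the values were seen. The ratio of BCL2 to MCL1 averaged 0.0622 ± 0.00959 in gLuc, 0.0618 ± 0.00453 in gFBXW7 and 0.0694 ± 0.0107 in gFBXW7_gKMT2D (SD, n = 3), with overlap throughout. The PMAIP1 to MCL1 ratio was 0.117 ± 0.0139, 0.134 ± 0.00881 and 0.161 ± 0.0425 (SD, n = 3), and that of BCL2L1 to MCL1 was 0.0471 ± 0.00861, 0.0508 ± 0.00405 and 0.0616 ± 0.0217 (SD, n = 3), both highest in gFBXW7_gKMT2D 3.

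**Figure D4:**
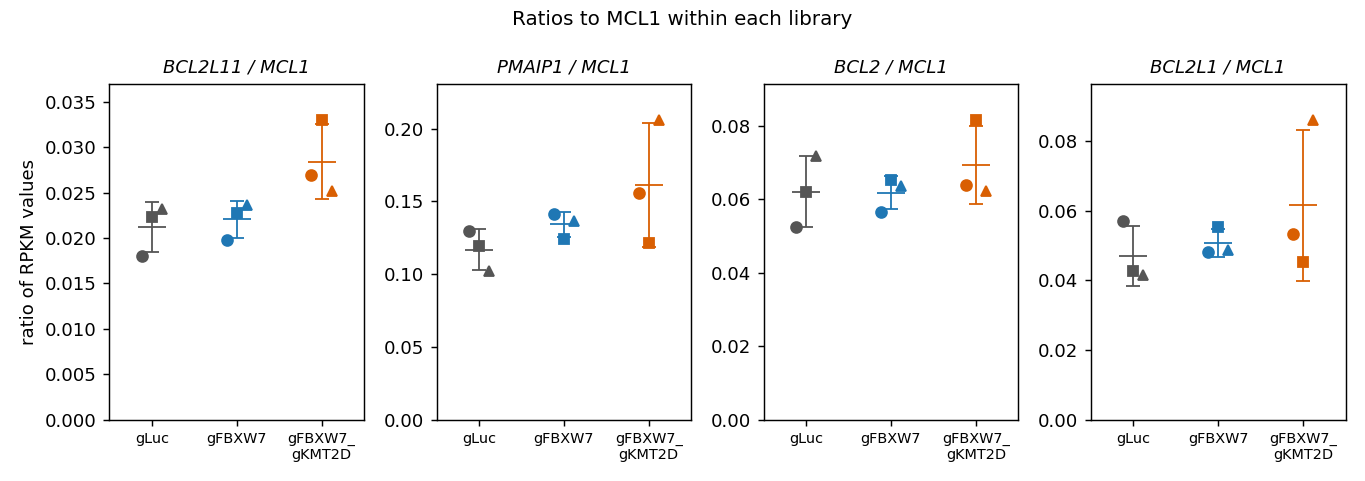
Ratio of RPKM of 4 members to that of MCL1 in each library (symbol, replicate number), where marks give the mean of a group and bars its SD (n = 3), each axis starting at 0. The 3 gFBXW7_gKMT2D libraries lie above all others for BCL2L11 to MCL1, and the groups overlap in the other 3 panels.

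The genes with the most similar profiles were sought for the 3 guardians among 8629 genes with at least 10 CPM, by Pearson r of log2 CPM over the 9 libraries, which share their depth and composition. For MCL1 these were CAB39 (r = 0.99), C11orf95 (r = 0.98) and MSL1 (r = 0.98), for BCL2 HERC1, PRR14L and C18orf25 (r = 0.99 each), and for BCL2L1 LOC100506248 (r = 0.98), VHL (r = 0.97) and LINC00957 (r = 0.97). They are the top of a ranking and carry no test.

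Of 13 further relatives of the BCL2 family, 7 were tested and 0 passed in either direction in each comparison. BCL2A1, BCL2L10, BOK, BIK, BCL2L14 and BNIP3 did not pass the filter and stayed below 0.13 RPKM in every library, so of the other classical guardians BCL2L2 (BCL-W) remained, with 0.783 to 1.504 RPKM. The most abundant relative, BCL2L12, had 16.97 to 28.1 RPKM, above BID, BCL2 and BCL2L1. Median log2 fold changes of the 7 were 0.00, -0.16 and -0.21 in the 3 comparisons. Among those with a mean of at least 5 CPM, the extremes in gFBXW7 against gLuc were BCL2L12 (0.29) and BCL2L13 (-0.16). In gFBXW7_gKMT2D they were BCL2L12 (0.07) and BMF (-0.60) against gLuc and BNIP3L (0.08) and BMF (-0.51) against gFBXW7. BCL2L15, at a mean of only 0.43 CPM, was higher there, at 0.85 against gLuc and 0.57 against gFBXW7. BMF, a BH3-only gene, had 19.99, 21.96 and 7.97 CPM in gFBXW7_gKMT2D and 21.2 to 27.9 CPM elsewhere, with the low value in gFBXW7_gKMT2D 3.

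Genes that act on the family or after it gave 0 calls as well. All 20 genes of the apoptosome and caspase list, which also holds VDAC1, VDAC2 and VDAC3, were tested, with medians of 0.07, 0.00 and 0.01. Their extremes at a mean of at least 5 CPM are given for the 3 comparisons in turn. They were AIFM1 (0.27) and APAF1 (-0.75), then CYCS (0.36) and APAF1 (-0.51), then APAF1 (0.24) and AIFM1 (-0.33). DFFB, at a mean of 4.43 CPM, had -0.37 in gFBXW7_gKMT2D against gFBXW7. APAF1, the scaffold of the apoptosome, averaged only 7.47 CPM, whereas CYCS, encoding cytochrome c, averaged 382.6 CPM. Of the genes for MCL1 protein turnover, 12 of 15 listed symbols were tested, with medians of -0.11, 0.06 and 0.07. RBX1 (0.25) and USP9X (-0.34), SKP1 (0.35) and USP9X (-0.27), and USP13 (0.26) and RNF7 (-0.19) were their extremes. USP9X is a deubiquitinase that stabilises MCL1, and RBX1 and SKP1 are subunits of SCF ligases.

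The 9 death receptor genes had medians of -0.11, -0.20 and -0.31. All 9 were on the lower side in gFBXW7_gKMT2D against gLuc, with 0 past the threshold by edgeR and 2 at an unadjusted p under 0.05 (3.61% of all genes), CASP10 (-0.37) and TNFRSF10A (-0.53). Of all genes 50% were on the higher side there. CASP10, and RIPK1 and TNFRSF10B below, were named after their values were seen. These genes and TNFRSF10A had their lowest value of the 9 libraries in gFBXW7_gKMT2D 3, while the other genes of the list did not. In gFBXW7_gKMT2D, TNFRSF10A had 13.4, 17.1 and 8.97 CPM and RIPK1 21.6, 26.9 and 12.8 CPM, and both overlapped with gLuc and with gFBXW7. CASP10, at 66.8, 75.8 and 51.3 CPM, did not overlap with gLuc (6.97% of all genes). Among genes with a mean of at least 5 CPM, the extremes in gFBXW7 against gLuc were TRADD (0.24) and FAS (-0.26). In gFBXW7_gKMT2D against gFBXW7 they were FAS (0.18) and TRADD (-0.45). Below that mean, TNFRSF10B (3.98 CPM) had -0.74 there with group only (edgeR unadjusted p = 0.014, with 4.22% of all genes under 0.05). With the surrogate variable, 2 genes of this list passed in the last comparison (0.950% of all genes), the TRAIL receptor gene TNFRSF10B (-0.77, SE 0.17, edgeR adjusted p = 0.048) and the kinase gene RIPK1 (-0.43, SE 0.09, edgeR adjusted p = 0.034). TNFRSF10B stood at 4.86, 5.30 and 4.58 CPM with FBXW7 targeted, and at 2.75, 3.94 and 1.94 CPM with both genes targeted, without overlap (9.55% of all genes). Over 17 alternatives the adjusted p ran from 0.048 to 1.0 for TNFRSF10B and from 0.034 to 1.0 for RIPK1, each with 1 call.

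Among the 13 tested transcription factors that act on the family, medians were -0.08, 0.06 and 0.00. DDIT3 (CHOP), which raises BCL2L11 in stress of the endoplasmic reticulum, had 14.2, 13.2 and 9.11 CPM for gLuc, 18.4, 18.9 and 16.1 with FBXW7 targeted, and 19.3, 14.4 and 17.4 with both genes targeted. Both targeted groups lay above gLuc without overlap, where 8.86% and 6.97% of all genes showed none. The nearest libraries were gFBXW7_gKMT2D 2 at 14.4 CPM and gLuc 1 at 14.2 CPM. DDIT3 had the highest value of its list in both comparisons, at log2 fold changes of 0.55 and 0.48 (SE 0.19, edgeR adjusted p = 0.96 and 0.90), which did not pass. Among genes with a mean of at least 5 CPM, MYC was the lower extreme in gFBXW7 against gLuc (-0.23). MYC was also the upper extreme in gFBXW7_gKMT2D against gFBXW7 (0.31). NFKB1 was the lower extreme in the 2 comparisons of gFBXW7_gKMT2D (-0.28 and -0.15). STAT5A, at a mean of 2.54 CPM, lay further out, at -0.78, -0.45 and 0.34 in the 3 comparisons.

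The plasma cell markers gave 0 calls. SDC1 was their lowest value in both comparisons of gFBXW7_gKMT2D (-0.36 against gLuc, -0.40 against gFBXW7), IRF4 in gFBXW7 against gLuc (-0.31), and MZB1 (0.24 and 0.21 against gLuc) and PRDM1 (0.26 against gFBXW7) were the highest. In the same order HBB, the 1 marker of other cells above 5 CPM, had 0.31, 0.13 and -0.18. The summed plasma cell markers overlapped between groups, at 3156 to 3518 CPM in gLuc, 3113 to 3362 CPM in gFBXW7 and 2865 to 3200 CPM in gFBXW7_gKMT2D, and so did those of other cells. Without the TMM factors the gLuc sums (3365 to 3424 CPM) lay above those of gFBXW7 (3114 to 3262 CPM) and gFBXW7_gKMT2D (2729 to 3117 CPM), so that separation depends on the scaling. The part of either in the values of the family was not tested.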

How the data were processed

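Poly(A) RNA gave 9 strand-specific (dUTP) OPM-1 libraries, per the labels' protocols. Trimmomatic, STAR, featureCounts and DESeq2 with build GRCh38 are named, without versions, per the submitters' processing notes. The table deposited by the authors gives a raw read count and an RPKM value per gene and library, per the file headers. RPKM was recomputed from count, gene length and library total (largest relative difference 8.5e-07). An unnamed row equal to the total of each of the 9 libraries was left out, and 28 rows with a number for a symbol were never named. MARCHF5 was not found by symbol and is not analysed here.

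Counts were fitted in R 4.3.3 with edgeR 4.0.16 (filterByExpr, TMM, quasi-likelihood, group only, all 9 libraries, Benjamini-Hochberg over 13262 genes, threshold 0.05). CPM uses TMM library sizes, and log2 CPM a prior count of 2. Alternatives used DESeq2 1.42.0, limma 3.58.1 on log2 RPKM plus a pseudocount, and sva 3.50.0, and the pipeline was tested on simulated data. Ratios were computed in R, and exact permutation tests and figures used Python 3.11.15, scipy 1.17.1 and matplotlib 3.10.9. Coordinates are from GENCODE v29. The members and gene lists were chosen with earlier results of these data known. Genes outside the 10 were named if called or, where a list had no call, as its highest and lowest fold change at a mean of at least 5 CPM, and as the 3 genes most like each guardian at 10 CPM or more. A further gene list is not reported here.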

Additional observations from a re-analysis of the deposited data

How the results depend on the processing

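In each of the 17 alternatives 0 members were called in any comparison, and the lowest adjusted p of a member was 0.18. Over all genes, gFBXW7_gKMT2D against gLuc gave 7 calls, but 21 without a filter on low counts, 24 with DESeq2, 4 with limma on log2 RPKM plus 1 or plus 0.1, 2 with the 6 compared libraries alone and 55 with 1 surrogate variable. In gFBXW7_gKMT2D against gFBXW7 the 8 calls became 33, 32, 3 and 3, 0 and 126 in the same order. In gFBXW7 against gLuc DESeq2 gave 1 call and the others 0. Samples with the same replicate number did not deviate together in every pair (r from -0.59 to 0.45), so the numbers were not taken as pairs, and with a replicate block the calls were 0, 2 and 2, with 0 members. With 1 library left out the calls ranged from 0 to 0, from 2 to 8 and from 0 to 7. The cause of these shifts was not tested.

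None of the 24 member values that turned sign outside the removal of libraries was called. With limma (plus 1, then plus 0.1) these were BCL2L1 (-0.0055, -0.0061) and BAK1 (-0.030, -0.030) in gFBXW7_gKMT2D against gLuc, and BCL2L1 (-0.019, -0.021), PMAIP1 (-0.013, -0.013) and BAD (-0.063, -0.066) against gFBXW7. With the 6 libraries alone BCL2 was 0.0088 against gFBXW7. With the surrogate variable they were MCL1 0.027, BCL2 0.13, BCL2L1 -0.041, BCL2L11 0.19, BID -0.13 and BAD -0.0072 in gFBXW7 against gLuc. In gFBXW7_gKMT2D they were BCL2 0.10, BCL2L1 -0.043, BAX -0.084, BID -0.12 and BAD -0.081 against gLuc, and BCL2L1 -0.0021 and BAD -0.074 against gFBXW7.

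With 1 library left out, 31 of 270 member values turned sign and 0 were called. The ranges in gFBXW7 against gLuc were -0.23 to 0.061 for BCL2, -0.0079 to 0.15 for BCL2L1, -0.16 to 0.082 for BCL2L11 and -0.024 to 0.19 for BID. In gFBXW7_gKMT2D against gLuc they were -0.36 to 0.096 for BCL2, -0.064 to 0.17 for BCL2L1, -0.046 to 0.29 for BAX, -0.020 to 0.11 for BAK1, -0.075 to 0.37 for BCL2L11, -0.16 to 0.35 for BID and -0.084 to 0.59 for BAD. Against gFBXW7 they were -0.27 to 0.19 for BCL2, -0.11 to 0.10 for BCL2L1, -0.25 to 0.025 for BAX, -0.057 to 0.39 for BCL2L11, -0.052 to 0.093 for PMAIP1, -0.21 to 0.29 for BID and -0.31 to 0.31 for BAD. Without a turn of sign, values moved by over 1.5 times for BAX (0.085 to 0.42) and BAD (0.027 to 0.54) in gFBXW7 against gLuc, and for BBC3 in gFBXW7_gKMT2D against gLuc (0.12 to 0.43), among others. Depth limits BBC3 most, at 17 to 43 reads a library.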
